A study of Mus musculus with 112 samples.

Results

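The 10 genes described here encode enzymes that make, elongate and desaturate fatty acids: Fasn, Acaca, Acly, Me1, Scd1, Scd2, Elovl5, Elovl6, Fads1 and Fads2. They were chosen by name and were found through probe sets that the array annotation assigns to a single gene symbol, and they are 10 of the 19938 genes measured. For Acaca and Me1, which each have a second probe set, the one with the higher mean over the 112 arrays was used.

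The study measured mRNA in the cerebral cortex of male mice under calorie restriction (CR) or a control diet. Each of 7 strains gave 8 CR mice and 8 control mice, so that 56 CR arrays and 56 control arrays form 14 groups. The strain B6C3F1/J is the hybrid of C57BL6/J and C3H/HeJ, which were both studied, and the inbred CBA/J, Balbc/J, DBA/2J and 129S1/SvImJ complete the set. Mice came to the laboratory aged 6 weeks, lived alone in a cage, ate 84 kcal per week of an AIN93M-based food until they were assigned to a diet at 8 weeks, and were killed at 22 weeks after a night without food on either diet. Rations differed between strains. Balbc/J mice received more on either diet, and a further cut was made partway for restricted C57BL6/J and 129S1/SvImJ mice. Ration thus cannot be told apart from strain where Balbc/J is compared with another strain on either diet. The same holds among CR mice where C57BL6/J or 129S1/SvImJ is compared with a strain without that cut. Each strain is a single genotype, and only males were studied. Values are log2 signals on Affymetrix Gene 1.0 ST arrays, and a difference of 0.1 on that scale is a small change. Because the tissue was measured in bulk, fewer cells of a type and less RNA per cell cannot be told apart.

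Fatty acids are built in the cytosol from acetyl-CoA, which ATP citrate lyase (Acly) releases from citrate and acetyl-CoA carboxylase (Acaca) turns into malonyl-CoA. Fatty acid synthase (Fasn) joins these units into palmitate with NADPH, part of which comes from malic enzyme (Me1). Elovl6 lengthens palmitate, the stearoyl-CoA desaturases Scd1 and Scd2 put the first double bond into saturated chains, and Elovl5, Fads1 and Fads2 elongate and desaturate polyunsaturated fatty acids. In liver and fat this programme is known to respond to feeding through SREBP and ChREBP, whereas in brain much of it serves membranes and the lipid-rich myelin that oligodendrocytes wrap around axons.

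On GRCm38.p6 the genes lie on 4 chromosomes. Acly is on chromosome 11 (100476352 to 100528000), as are Fasn (120805958 to 120825166) and Acaca (84129635 to 84401651). Fads2 (10062765 to 10101503) and Fads1 (10182877 to 10196874) neighbour each other on chromosome 19, where Scd2 (44293676 to 44306864) and Scd1 (44394450 to 44407709) form another such pair. Elovl5 (77917365 to 77984519) and Me1 (86581363 to 86695914) are on chromosome 9, and Elovl6 (129532386 to 129638495) is on chromosome 3.

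RefSeq promoter sequences (GRCm38.p6) were at hand for 7 of the 10 genes. The 250 bases before the start are shown for Fads2 and Elovl6, the members with the widest gap between diets, and for Acly and Elovl5, whose levels moved together between mice and were low in the hybrid. Fads2 is read on the minus strand (chr19:10101504-10101753), Elovl6 on the plus strand (chr3:129532136-129532385), Acly on the minus strand (chr11:100528001-100528250) and Elovl5 on the plus strand (chr9:77917115-77917364). Capitals mark matches on either strand to the CCAAT box (CCAAT), the GC box (GGGCGG) and the E-box (CACGTG).
Fads2: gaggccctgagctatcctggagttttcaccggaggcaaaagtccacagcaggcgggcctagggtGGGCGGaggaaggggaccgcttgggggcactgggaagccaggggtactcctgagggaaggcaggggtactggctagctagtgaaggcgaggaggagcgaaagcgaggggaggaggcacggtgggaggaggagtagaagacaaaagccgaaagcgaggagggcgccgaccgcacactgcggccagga
Elovl6: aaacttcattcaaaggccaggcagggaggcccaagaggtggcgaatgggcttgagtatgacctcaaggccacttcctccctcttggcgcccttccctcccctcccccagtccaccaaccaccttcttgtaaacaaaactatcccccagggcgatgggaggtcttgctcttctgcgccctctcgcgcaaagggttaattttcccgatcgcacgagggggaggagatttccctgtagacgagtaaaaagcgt
Acly: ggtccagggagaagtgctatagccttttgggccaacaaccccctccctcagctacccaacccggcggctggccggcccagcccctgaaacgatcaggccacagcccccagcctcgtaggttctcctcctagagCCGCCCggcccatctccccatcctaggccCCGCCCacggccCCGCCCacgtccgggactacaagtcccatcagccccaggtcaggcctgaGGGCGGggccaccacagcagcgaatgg
Elovl5: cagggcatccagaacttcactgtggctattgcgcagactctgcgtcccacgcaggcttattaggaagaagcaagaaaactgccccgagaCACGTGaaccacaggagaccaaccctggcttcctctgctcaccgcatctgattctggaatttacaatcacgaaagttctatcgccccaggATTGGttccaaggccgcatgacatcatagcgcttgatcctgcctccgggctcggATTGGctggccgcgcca
The Acly window holds 4 GC boxes, the Fads2 window holds 1, the Elovl5 window holds 2 CCAAT boxes and 1 E-box, and the Elovl6 window has no match to any of the 3. Of 32851 mouse promoters of this length, 33.8% held a CCAAT box, 32.7% a GC box and 6.02% an E-box. None of these motifs overlapped another in the windows shown, and a match is a description of letters, not of binding.

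Before the comparisons, some arrays and regional markers need a description. A list of 12 cerebellar genes averaged 11.24 in C57BL6/J control replicate 6 and 11.42 in B6C3F1/J control replicate 8, against a median of 7.22 over CR arrays and 7.21 over control arrays. The list was also raised in replicate 6 of the CBA/J CR mice (8.50) and in replicate 8 of the DBA/2J control mice (8.78). In C57BL6/J control replicate 6, Fads2 was 0.67, Acly 0.56, Fads1 0.49 and Fasn 0.48 log2 units below the mean of the other 7 arrays of that group. B6C3F1/J control replicate 8 was low in the same way for Fads2 (0.55), Fasn (0.42) and Fads1 (0.36). The 6 measured striatal genes, which include the dopamine receptors Drd1 and Drd2, ranged widely between cortex samples, with means of 8.36 to 11.11 on CR arrays and 8.01 to 10.94 on control arrays. Markers of excitatory neurons (9 genes, mean 9.56 to 10.55 in CR and 8.16 to 10.60 in control) were high on nearly all arrays.

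The first question was whether CR changed these genes over all strains. None of the 10 genes was called at an adjusted p of 0.05 (limma, Benjamini-Hochberg over all genes), where 2.34% of all genes were called, 1.17% higher in CR mice and 1.17% lower. At an unadjusted p of 0.05, 3 of the 10 genes passed against 14.3% of all genes. The differences between CR and control were small throughout: 8 of 10 were positive, their median was 0.021 against 0.00054 for all genes, and all 10 had a 95% confidence interval that lay within a 20% change, as 99.2% of all genes did. The interval lay above 0 for 3 genes (Fads2, Elovl6 and Scd2) and included 0 for the other 7.

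Fads2, the desaturase that opens the synthesis of long polyunsaturated fatty acids, had the largest difference. It averaged 10.91 in CR mice and 10.84 in control mice, a difference of 0.076 ± 0.023 (SE, n = 56 each), or 5.42% (95% interval 2.17% to 8.79%), and its adjusted p of 0.0503 in limma lay just past the threshold. In 129S1/SvImJ the lowest, median and highest of 8 CR mice were 10.82, 11.08 and 11.24, against 10.77, 10.95 and 11.05 in control mice. The upper part of the CR range was above every control mouse of that strain, but the ranges overlapped. In C57BL6/J the same values were 10.69, 10.76 and 10.88 in CR mice and 10.09, 10.73 and 10.84 in control mice. The CR mean was higher in 6 of 7 strains, by 0.13 in 129S1/SvImJ, 0.12 in C3H/HeJ, 0.11 in C57BL6/J, 0.10 in DBA/2J, 0.097 in B6C3F1/J and 0.0048 in CBA/J, and was lower by 0.023 in Balbc/J. At least 6 strains of 1 sign was also found for 19.7% of all genes. Without the 4 arrays high in cerebellar genes the difference was 0.060 and passed (adjusted p = 0.0215, limma), so that its size fell while its spread narrowed. Within strains, leaving these arrays out took the Fads2 difference to 0.024 in C57BL6/J, where replicate 6 of the control mice holds the value of 10.09, to 0.028 in B6C3F1/J and to 0.14 in DBA/2J.

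Elovl6, the elongase that turns palmitate into stearate, averaged 10.29 in CR mice and 10.23 in control mice (0.065 ± 0.020, SE, n = 56 each; 4.58%, 95% interval 1.69% to 7.54%; adjusted p = 0.0672, limma). The difference was widest in 129S1/SvImJ, where the lowest, median and highest values were 10.24, 10.39 and 10.56 in CR mice and 10.04, 10.24 and 10.34 in control mice. In DBA/2J they were 10.24, 10.36 and 10.49 in CR mice and 9.98, 10.22 and 10.41 in control mice. Most CR mice of these strains lay in the upper part of the control range or above it, with overlap in both. The differences were 0.18 and 0.14 in these strains, between 0.027 and 0.046 in C57BL6/J, C3H/HeJ, CBA/J and B6C3F1/J, and −0.0068 in Balbc/J. In DBA/2J the striatal list also differed, at 9.62 ± 0.83 in CR mice and 10.12 ± 0.64 in control mice (SD, n = 8 each), the widest drop of any strain, and the lowest control value of Elovl6 is replicate 8, which is high in cerebellar genes. The DBA/2J difference was 0.11 with the striatal list as a covariate and also 0.11 without the 4 arrays high in cerebellar genes. In 129S1/SvImJ it was 0.19 with that covariate, and the striatal list averaged 9.70 in CR mice and 9.63 in control mice. Without the 4 arrays the difference was 0.052 in C57BL6/J and 0.062 in B6C3F1/J. Elovl6 levels fell as striatal genes rose between mice, and with the mean of the striatal list as a covariate the difference was 0.070 (adjusted p = 0.0155, limma). It was 0.069 without the 4 arrays high in cerebellar genes (adjusted p = 0.0247), and dropping a single one of them was enough for a call (adjusted p = 0.0432 when replicate 6 of the C57BL6/J controls was dropped, and 0.0388 for replicate 8 of the B6C3F1/J controls).

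Scd2, the main stearoyl-CoA desaturase of brain, averaged 12.58 in CR mice and 12.55 in control mice (0.029 ± 0.012, SE, n = 56 each; 2.07%; adjusted p = 0.2005, limma). The widest gap was in C57BL6/J, with a lowest, median and highest of 12.62, 12.67 and 12.77 in CR mice against 12.51, 12.58 and 12.68 in control mice. The CR mice lay in the upper part of the control range or above it. In this strain the striatal list averaged 10.20 in CR mice and 9.76 in control mice. A list of 11 myelin genes averaged 9.83 and 9.69. The Scd2 difference there was 0.077, against 0.060 with the striatal list as a covariate and 0.081 without the 4 arrays high in cerebellar genes. The part of either list in this gap was not tested further. In the hybrid, whose parent C57BL6/J is, the means were 12.48 in CR mice and 12.49 in control mice.

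The genes of palmitate synthesis gave values close to zero. Fasn averaged 10.26 in CR mice and 10.25 in control mice (0.0081 ± 0.018, SE, n = 56 each; adjusted p = 0.909, limma), and its 95% interval ran from −1.92% to 3.11%. Acly, which supplies acetyl-CoA, differed by 0.0036 ± 0.023 (adjusted p = 0.973). Acaca, which makes malonyl-CoA, differed by −0.017 ± 0.017 (adjusted p = 0.740) and was lower in CR mice in 6 of 7 strains. Me1 had 9.19 in CR mice and 9.16 in control mice (0.028 ± 0.016, adjusted p = 0.449). The signs for Fasn and Acly turned without the 4 cerebellum-rich arrays (−0.010 and −0.0098), and that of Acaca turned with its other probe set (0.011), so none of these has a settled direction. Scd1, the desaturase that falls with fasting in liver, had −0.020 ± 0.022 (adjusted p = 0.761), Elovl5 had 0.027 ± 0.023 (adjusted p = 0.660), and Fads1 had 0.015 ± 0.016 (adjusted p = 0.765).

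**Figure D1:**
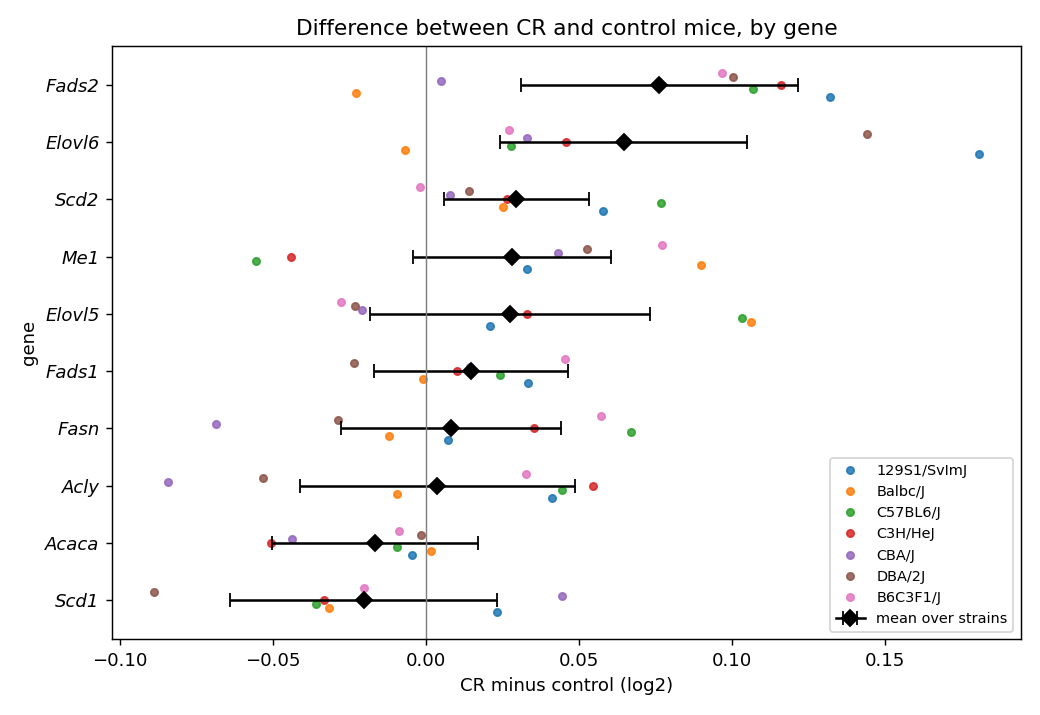
Difference between CR and control mice on the log2 scale (x axis) for each of the 10 genes (y axis). Coloured points are the 7 strains, black diamonds the mean over strains with its 95% interval. The intervals of Fads2, Elovl6 and Scd2 lie above 0, and the other 7 include 0.

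Within single strains, none of the 70 gene and strain differences was called, where between 0% (Balbc/J, C3H/HeJ, DBA/2J and B6C3F1/J) and 0.1% (CBA/J) of all genes were, with 0.00502% in 129S1/SvImJ and 0.0853% in C57BL6/J. In every one of the 70 cases the ranges of CR and control mice overlapped, and 0.0738% of all gene and strain cases did not. An unadjusted p under 0.01 was reached in 2 of the 70, by Elovl6 in 129S1/SvImJ (adjusted p = 0.349, limma) and in DBA/2J (adjusted p = 0.694), a threshold that 1.82% of all gene and strain cases passed. The methods' t-test at the threshold the study used passed Elovl6 in 129S1/SvImJ and Scd2 in C57BL6/J, none of the 70 after Benjamini-Hochberg adjustment, and no gene in 3 or more strains. By the same method, 17 gene and strain cases over all genes passed after adjustment on linear signal, and 19 on log2 signal. The share of all genes that passed its unadjusted threshold was not counted here. The study's supplement lists such a share for the cortex of each strain, over its own set of transcripts. The passes of Elovl6 and Scd2 were not set against it and are not read as a result. The standard error of a difference within a strain had a median of 0.051, against 0.019 over all strains. The strain by diet interaction was called for 0 of 10 genes by limma and passed an unadjusted p of 0.05 for 0 of 10, where 0.0401% and 6.11% of all genes did.

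Strain, with 6 degrees of freedom, took a larger share of the variation than diet, with 1, in each of the 10 genes, as it did in 99.6% of all genes. Per degree of freedom the share of diet was larger for Fads2 (6.45% for diet and 5.58% for strain) and Elovl6 (6.19% and 4.71%), while that of strain was larger for the other 8 genes and for 89.7% of all genes. Strain differences were called for 8 of 10 genes among CR mice (56.8% of all genes) and for 8 of 10 among control mice (65.4% of all genes). Acaca was called in neither diet (adjusted p = 0.662 in CR and 0.187 in control, limma). Fasn missed among CR mice (0.0676) and Fads1 among control mice (0.0559), and without the 4 arrays high in cerebellar genes both were called (0.00743 and 0.0119). Strain took between 11.8% (Acaca) and 67.5% (Me1) of the sum of squares of a gene over the 112 arrays, and diet between 0.012% (Acly) and 6.45% (Fads2), with 6.19% for Elovl6 and 3.19% for Scd2. Over pairs of strains, 73 of 210 gene and pair differences were called among CR mice (20.2% of all) and 58 of 210 among control mice (23.7% of all).

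**Figure D2:**
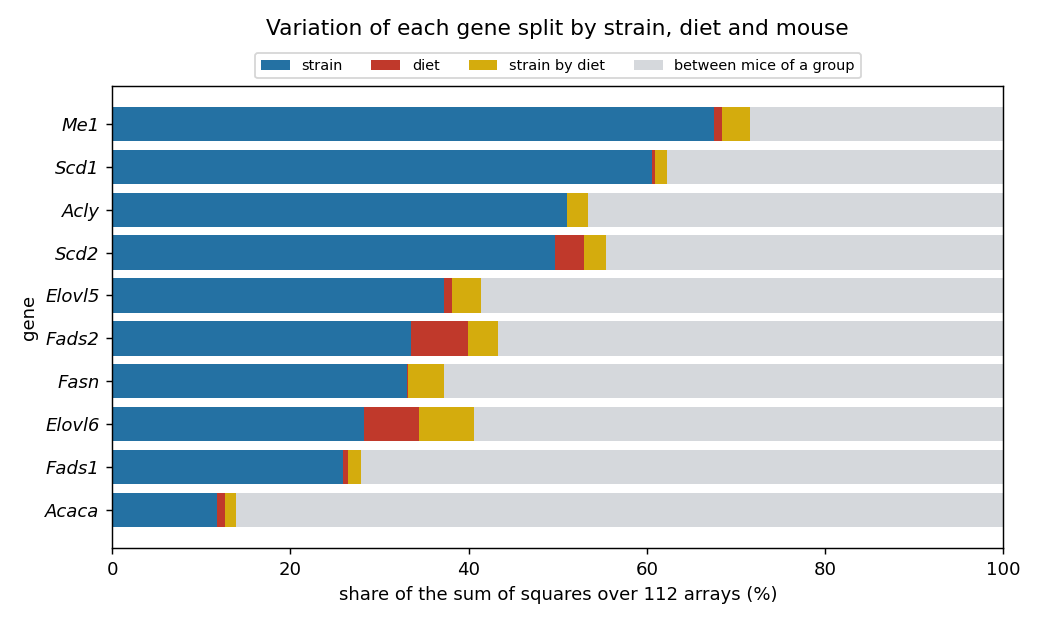
Share of the sum of squares over 112 arrays, in percent (x axis), taken by strain, diet, strain by diet and the spread between mice of a group, for each gene (y axis). Strain is widest for Me1 (67.5%) and narrowest for Acaca (11.8%), and diet reaches 6.45% for Fads2.

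Me1, a cytosolic source of NADPH, had the largest share of its variation between strains among the 10 genes, while the widest range of strain means was that of Scd1. In 129S1/SvImJ the lowest, median and highest values were 9.36, 9.41 and 9.47 in CR mice and 9.21, 9.37 and 9.54 in control mice. In CBA/J they were 8.80, 8.99 and 9.07 in CR mice and 8.74, 8.97 and 9.07 in control mice. The ranges of these strains did not meet on either diet. The 129S1/SvImJ mean exceeded the CBA/J mean by 0.43 among CR mice and 0.44 among control mice (adjusted p = 3.76e-14 and 9.36e-15, limma). 129S1/SvImJ was above each of the 6 other strains and CBA/J below each of them on both diets, with all pairs called. Between these ends came Balbc/J, C57BL6/J, B6C3F1/J, C3H/HeJ and DBA/2J among CR mice, and C57BL6/J, C3H/HeJ, Balbc/J, B6C3F1/J and DBA/2J among control mice, and no neighbours in either order differed. The second Me1 probe set had the same ends in control mice, with a range of 0.51 between strain means, and followed the first with r = 0.961 over 112 arrays as a description.

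Scd1 was highest in 129S1/SvImJ and lowest in Balbc/J on both diets. The lowest, median and highest values in 129S1/SvImJ were 11.14, 11.33 and 11.41 in CR mice and 11.05, 11.28 and 11.54 in control mice. Balbc/J had 10.59, 10.75 and 11.01 in CR mice and 10.64, 10.83 and 10.98 in control mice. These ranges did not overlap on either diet. 129S1/SvImJ exceeded Balbc/J by 0.53 among CR mice and 0.47 among control mice (adjusted p = 4.43e-13 and 3.00e-11, limma), and exceeded each of the other 5 strains as well. The remaining strains ran from 11.004 (CBA/J) to 10.93 (C3H/HeJ) among CR mice and from 11.05 (DBA/2J) to 10.96 (CBA/J) among control mice, with no neighbours among them called. Balbc/J was below its neighbour by 0.15 on either diet (adjusted p = 0.0592 in CR and 0.0482 in control mice).

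Acly stood at the other end in 129S1/SvImJ, whose CR mice had 8.83, 9.01 and 9.05 (lowest, median, highest) and whose control mice had 8.78, 8.89 and 9.19. C57BL6/J had 9.31, 9.36 and 9.42 in CR mice and 8.82, 9.36 and 9.51 in control mice, where the lowest value is replicate 6. Apart from that array the strains did not overlap. 129S1/SvImJ was lower than C57BL6/J by 0.37 among CR mice (adjusted p = 2.00e-07, limma) and by 0.36 among control mice (adjusted p = 1.93e-07). It was called lower than 4 of the 6 other strains in CR mice and 5 of 6 in control mice. Against 129S1/SvImJ, between 3223 (B6C3F1/J) and 8346 (Balbc/J) of 19938 genes were called in either direction among CR mice. Among control mice it was between 4098 (B6C3F1/J) and 11038 (C57BL6/J). This background also applies to the pairs of 129S1/SvImJ for Me1 and Scd1. The neighbour of 129S1/SvImJ in the order of Acly on both diets was B6C3F1/J, from which it did not differ (adjusted p = 0.177 and 0.118, limma).

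Scd2 ran from 129S1/SvImJ (12.68 ± 0.078 in CR mice and 12.62 ± 0.058 in control mice, SD, n = 8 each) to B6C3F1/J (12.48 ± 0.074 in CR mice and 12.49 ± 0.069 in control mice), and no neighbours in its order differed. Fads2 ran from 129S1/SvImJ (11.07 ± 0.15 in CR mice and 10.94 ± 0.090 in control mice) to C57BL6/J (10.78 ± 0.060 in CR mice and 10.67 ± 0.24 in control mice). Elovl6 was lowest in C57BL6/J on both diets (10.14 ± 0.058 in CR mice and 10.12 ± 0.12 in control mice) and highest in 129S1/SvImJ among CR mice (10.40 ± 0.11) and C3H/HeJ among control mice (10.33 ± 0.14). Among CR mice C57BL6/J was called lower in 4 of 6 strain pairs for Fads2 and in 4 of 6 for Elovl6, where 13.5% of all genes and pairs with C57BL6/J were. Among control mice it was called lower in 5 of 6 pairs for Fads2 and in 2 of 6 for Elovl6 (19.4% of all genes and pairs). Without the 4 arrays high in cerebellar genes, which include C57BL6/J control replicate 6, the control counts were 3 of 6 for Fads2 and 5 of 6 for Elovl6. The share of all genes was not counted without these arrays. The 19.4% found with all arrays does not apply to these counts, so their change is not read as a result about either gene. Without C57BL6/J the strain differences of Fads2 and Elovl6 among control mice were no longer called (adjusted p = 0.293 and 0.196, limma). Those of Elovl6 were also not called without C3H/HeJ (adjusted p = 0.0683, limma).

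Fasn was highest in DBA/2J (10.36 ± 0.084 in CR mice and 10.39 ± 0.063 in control mice, SD, n = 8 each), with CBA/J next on both diets (10.29 ± 0.091 and 10.36 ± 0.062). Its range of strain means was 0.15 among CR mice and 0.23 among control mice. Elovl5 ran from C3H/HeJ (10.21 ± 0.10 in CR mice and 10.17 ± 0.092 in control mice) to B6C3F1/J (9.88 ± 0.13 in CR mice and 9.90 ± 0.17 in control mice). Without C3H/HeJ its strain differences among control mice were not called (adjusted p = 0.296, limma). Fads1 had strain means between 11.22 and 11.36 in CR mice and between 11.21 and 11.34 in control mice, and Acaca between 9.10 and 9.18 in CR mice and between 9.10 and 9.23 in control mice. The second Acaca probe set, which followed the first with r = 0.525 only, was called among CR mice (adjusted p = 0.00121, limma) and control mice (4.3e-05). The first was called among control mice when the arrays were quantile normalized again (adjusted p = 0.00984, limma). The uniformity of Acaca over strains thus depends on the probe set and, among control mice, on the normalization.

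**Figure D3:**
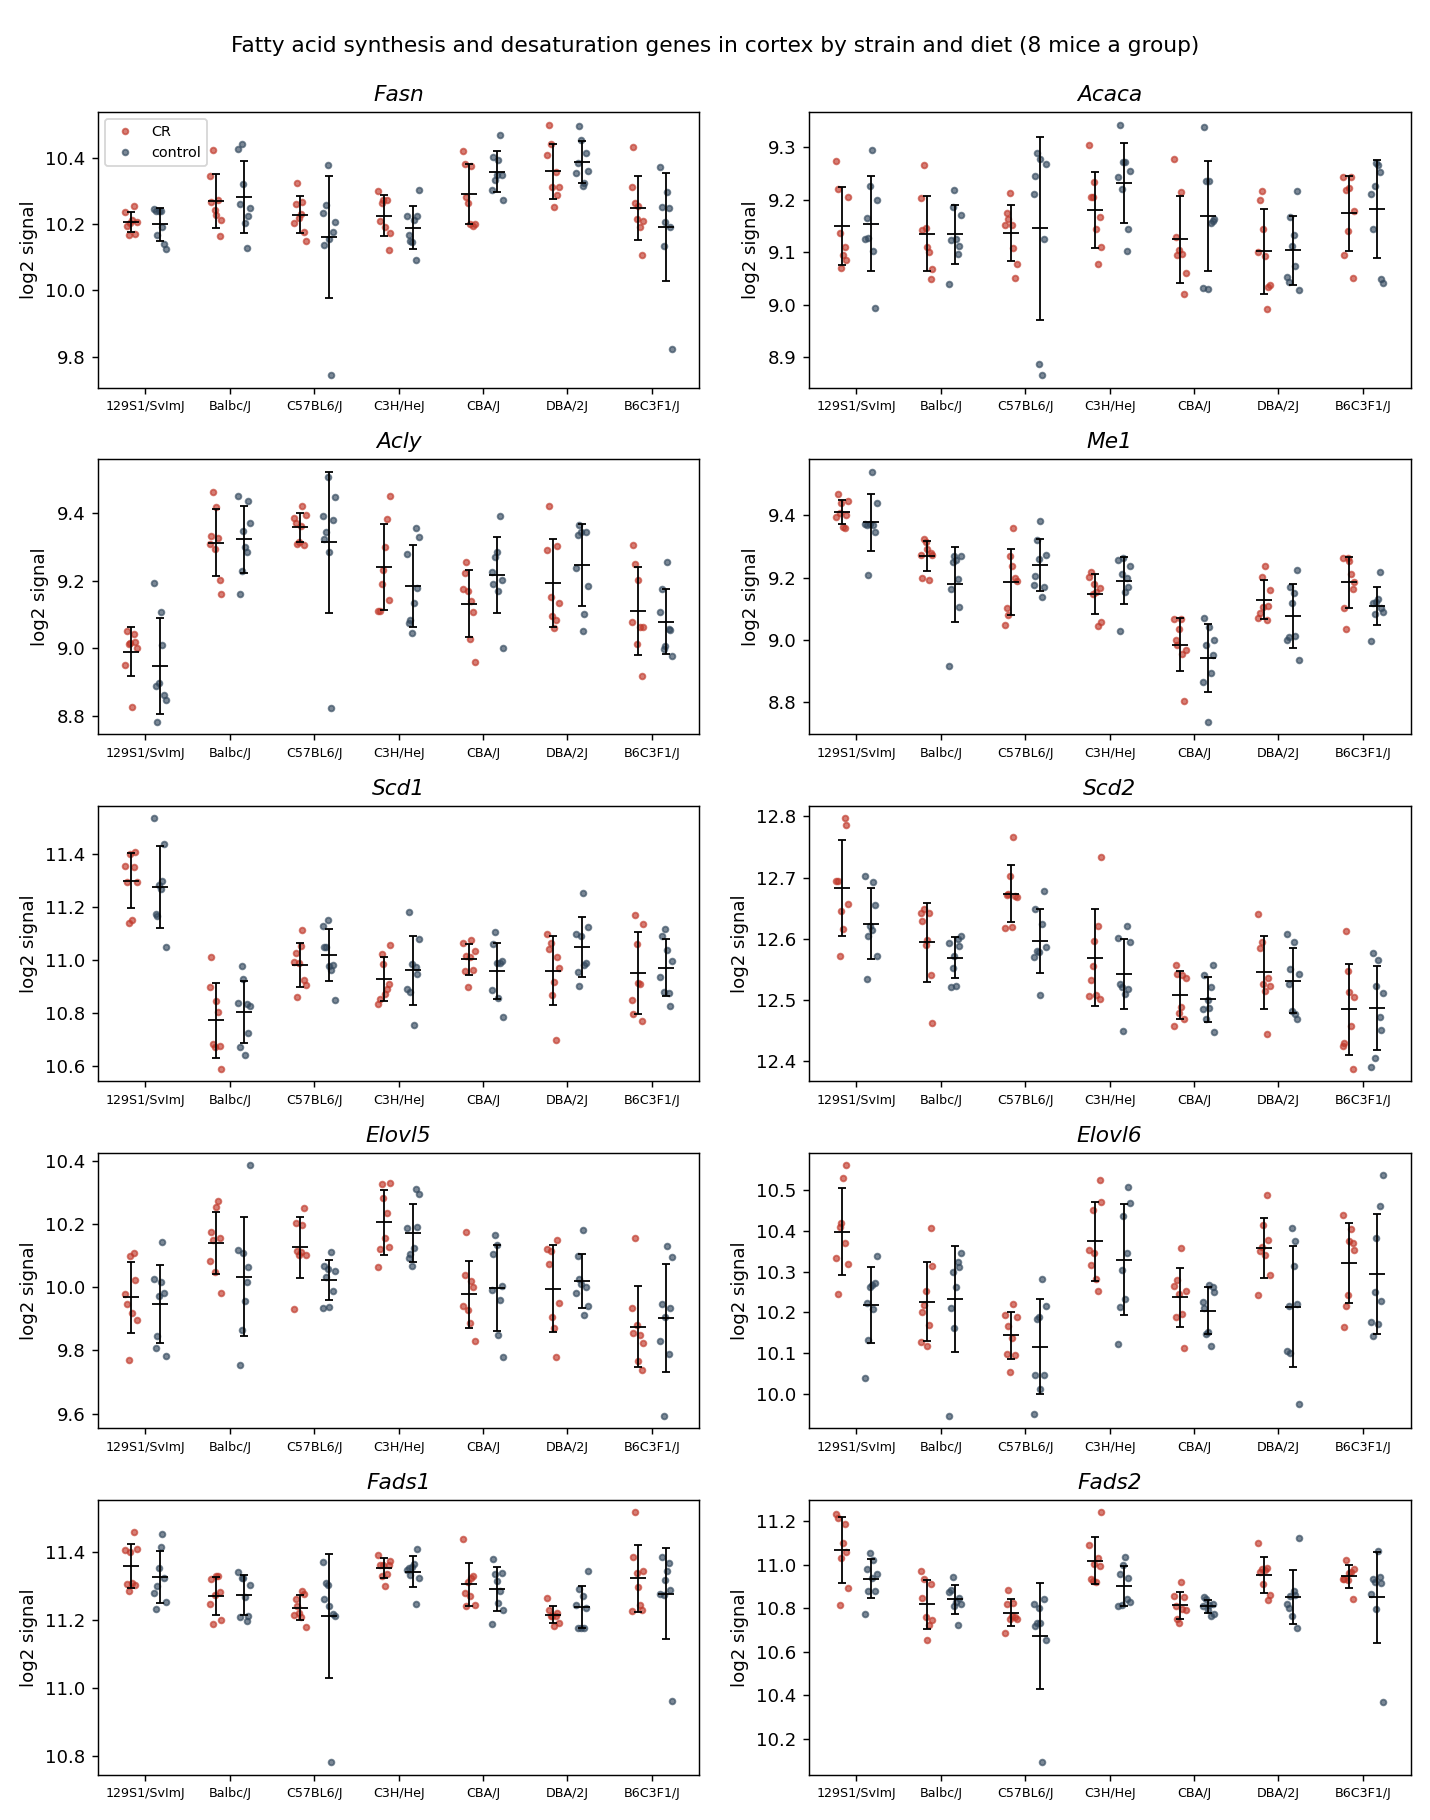
Log2 signal (y axes, each with its own scale) of the 10 genes in 7 strains (x axes), with CR mice in red and control mice in dark blue. Points are mice, and black bars the mean ± SD of 8 mice. CR and control mice overlap in every strain, while Me1 and Scd1 differ between strains, with 129S1/SvImJ highest.

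The hybrid was set against the mean of its parents, of which C57BL6/J alone had the further ration cut under CR. It differed for 3 of 10 genes among CR mice (18% of all genes) and 4 of 10 among control mice (16.2% of all genes), and each of these values was lower in the hybrid than in either parent. Elovl5 averaged 9.88 in CR hybrids, against 10.13 in C57BL6/J and 10.21 in C3H/HeJ (−0.29 ± 0.053, SE, adjusted p = 1.13e-05, limma). In control mice it averaged 9.90 in hybrids, against 10.02 in C57BL6/J and 10.17 in C3H/HeJ (−0.19 ± 0.053, adjusted p = 0.00530). The lowest, median and highest CR hybrids had 9.74, 9.85 and 10.16, against 9.93, 10.11 and 10.25 in C57BL6/J and 10.06, 10.20 and 10.33 in C3H/HeJ. Most hybrids were thus below both parents, while the ranges overlapped.

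Scd2 was lower in the hybrid by 0.14 ± 0.027 among CR mice (12.48 against 12.67 in C57BL6/J and 12.57 in C3H/HeJ; adjusted p = 6.89e-05, limma). Among control mice it was lower by 0.083 ± 0.027 (12.49 against 12.60 and 12.54; adjusted p = 0.0251). Acly was lower by 0.19 ± 0.052 among CR mice (9.11 against 9.36 in C57BL6/J and 9.24 in C3H/HeJ; adjusted p = 0.00543) and by 0.17 ± 0.052 among control mice (9.08 against 9.31 and 9.18; adjusted p = 0.0143). Me1 was lower among control hybrids (−0.11 ± 0.037, adjusted p = 0.0331, but 0.0541 without B6C3F1/J control replicate 8) and had 0.019 ± 0.037 among CR hybrids (adjusted p = 0.781). The striatal list was also lower in the hybrid, at 9.61 ± 0.77 in CR mice and 9.38 ± 0.93 in control mice (SD, n = 8 each), against 10.20 and 9.76 in C57BL6/J and 10.27 and 10.02 in C3H/HeJ for the same diets. With that list as a covariate the CR differences were −0.23 for Elovl5, −0.11 for Scd2 and −0.11 for Acly, all called (limma). Among control mice they were −0.15 for Elovl5 (adjusted p = 0.0145), −0.11 for Acly (0.0254) and −0.064 for Scd2, which no longer passed (0.0721).

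Between mice of the same strain and diet, several of the genes varied together. After subtraction of group means, 29 of 45 gene pairs correlated positively over the 112 arrays, and 17 positive and 4 negative pairs passed after adjustment over 75 relations (permutation test, 100000 shuffles within groups, two-sided). An r of at least the same size as in the weakest of these pairs (0.255) was found for 17.2% of all pairs of genes on the positive side and 14% on the negative side, so that such correlations are common on these arrays. All 21 kept their sign without the 4 arrays high in cerebellar genes. Scd2 and Elovl5 had r = 0.621 (rho = 0.626, permutation p = 1e-05, the smallest these shuffles can give, adjusted 6.82e-05), and r = 0.623 without the 2 arrays farthest from the median. Scd1 and Scd2, neighbours on chromosome 19, had r = 0.577 (rho = 0.574, permutation p = 1e-05, adjusted 6.82e-05; 0.552 without the 2 farthest). Scd1 and Elovl5 had r = 0.491 (rho = 0.502, adjusted permutation p = 6.82e-05; 0.506 without the 2 farthest).

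Fads1 and Fads2, also neighbours, had r = 0.645 (rho = 0.434, permutation p = 3e-05, adjusted 0.000161), but 0.386 without the 2 farthest arrays and 0.284 without the 4 arrays high in cerebellar genes. Fasn and Fads1 fell likewise, to 0.343 without those 4 arrays, against r = 0.624 with them (rho = 0.428, permutation p = 1e-05, adjusted 6.82e-05). Fasn and Acly had r = 0.583 (rho = 0.495, permutation p = 1e-05, adjusted 6.82e-05; 0.491 without the 2 farthest), and Acaca and Me1 had r = 0.458 (rho = 0.503, permutation p = 1e-05, adjusted 6.82e-05; 0.428). Elovl6 went the other way from Fads1 (r = −0.393, rho = −0.326, adjusted permutation p = 0.000353), Fasn (−0.354, rho = −0.288, adjusted 0.00255) and Acly (−0.329, rho = −0.297, adjusted 0.00262). Without the 2 farthest arrays these were −0.303, −0.345 and −0.335. The fourth negative pair, Elovl6 and Fads2 (r = −0.255), had −0.0064 without the 4 arrays.

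**Figure D4:**
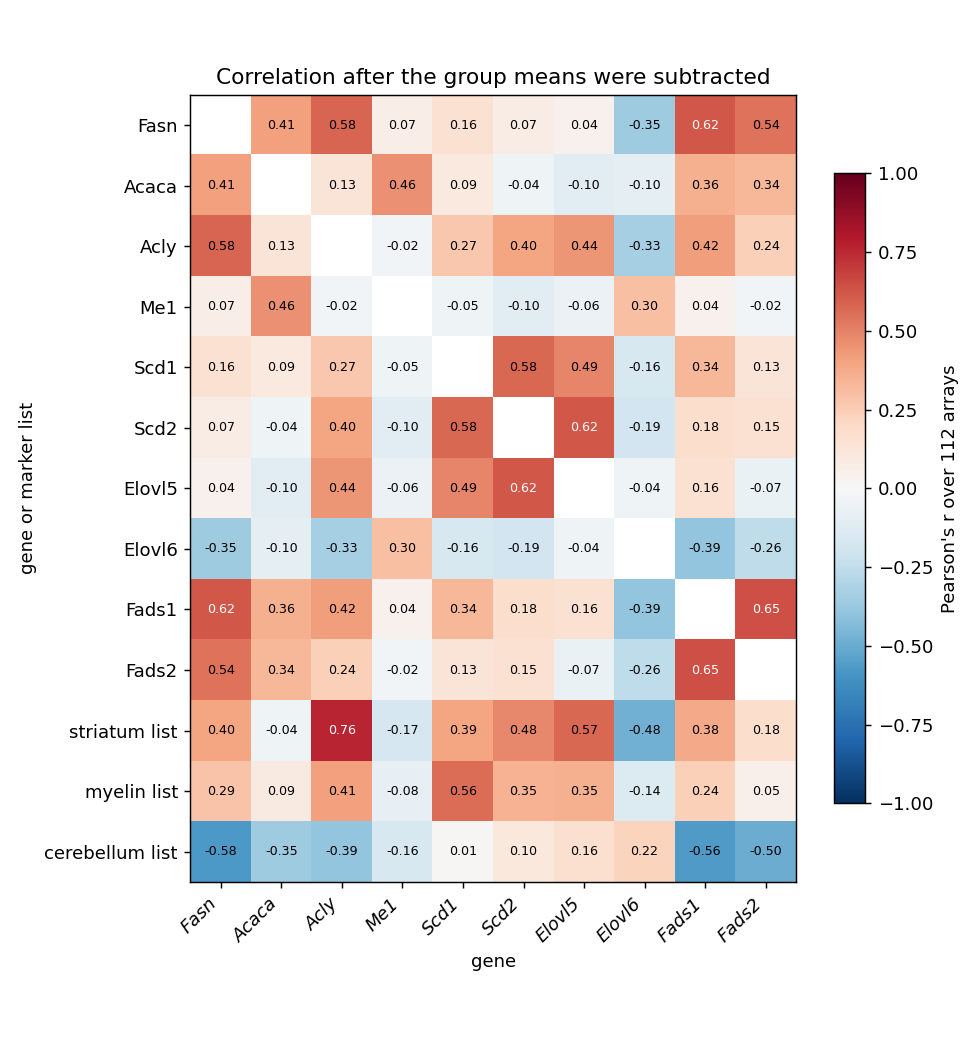
Pearson's r over 112 arrays after the mean of each strain and diet group was subtracted, for the 10 genes (x axis) with each other and with 3 marker lists (y axis). Red is positive and blue negative. Acly and the striatum list have the highest r (0.76), and Elovl6 is negative with Fasn, Acly, Fads1, Fads2 and the striatum list.

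Marker lists of neighbouring regions and of myelin moved with several of the genes. Acly followed the striatal list most closely, with r = 0.762 (rho = 0.765, permutation p = 1e-05, adjusted 6.82e-05; 0.747 without the 2 farthest arrays). Elovl5 (r = 0.573, rho = 0.609, 0.624 without the 2 farthest) and Scd2 (r = 0.479, rho = 0.495, 0.499) rose with it, and Elovl6 (r = −0.477, rho = −0.458, −0.439) fell with it, each at an adjusted permutation p of 6.82e-05. Scd1 followed the 11 measured myelin genes (r = 0.557, rho = 0.543, permutation p = 1e-05, adjusted 6.82e-05; 0.551 without the 2 farthest). The myelin list also rose with Acly (r = 0.407, rho = 0.390, adjusted permutation p = 0.000115; 0.360 without the 2 farthest), Elovl5 (0.354, rho = 0.407, adjusted 0.00163; 0.313), Scd2 (0.348, rho = 0.367, adjusted 0.00175; 0.335), Fasn (0.287, rho = 0.262, adjusted 0.00629; 0.283) and Fads1 (0.240, rho = 0.185, adjusted 0.0284; 0.246). Fads2 had r = 0.0507 with the same genes (rho = −0.0904, adjusted permutation p = 0.700). The genes whose levels were most like that of Scd1 over the 112 arrays, with each group mean subtracted, were Gatm (r = 0.65), an enzyme of creatine synthesis, Cers2 (0.64), the ceramide synthase of very long chains, and Qk (0.61), an RNA-binding protein of oligodendrocytes. Fads2 was most like Timp2 (0.86), Fads1 most like Vstm2l (0.78), Fasn most like Eri3 (0.78) and Acly most like Adcy5 (0.81). Without the 4 arrays high in cerebellar genes other genes came closest to these 4, namely Slc29a4 for Fads2 (0.71), Zic2, itself in the cerebellar list, for Fads1 (0.63), Mtor for Fasn (0.66) and Nsg1 for Acly (0.81). The closest gene likewise changed for Elovl5 (Inpp5f at 0.72 over all arrays, and Slc32a1 at 0.73 without the 4), Scd2 (Abat at 0.65, and Ache at 0.65) and Me1 (Lnpk at 0.66, and Nt5c3 at 0.67). It stayed the same for Scd1, for Elovl6 (Tubgcp4, 0.69 and 0.64) and for Acaca (Tcea2, 0.66 and 0.59). Fasn, Fads1 and Fads2 had r of −0.577, −0.563 and −0.500 with the cerebellar list, but −0.153, 0.0148 and 0.134 without the 2 farthest arrays. These negative relations thus rest on those 2 arrays. Without all 4 arrays high in cerebellar genes the values were −0.058, 0.230 and 0.388, so that the sign turned for Fads1 and Fads2. The striatal list itself had a CR minus control median of 0.085 over its 6 genes, of which 0 were called, and the myelin list had 0.0063 over 11 genes with 0 called.

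**Figure D5:**
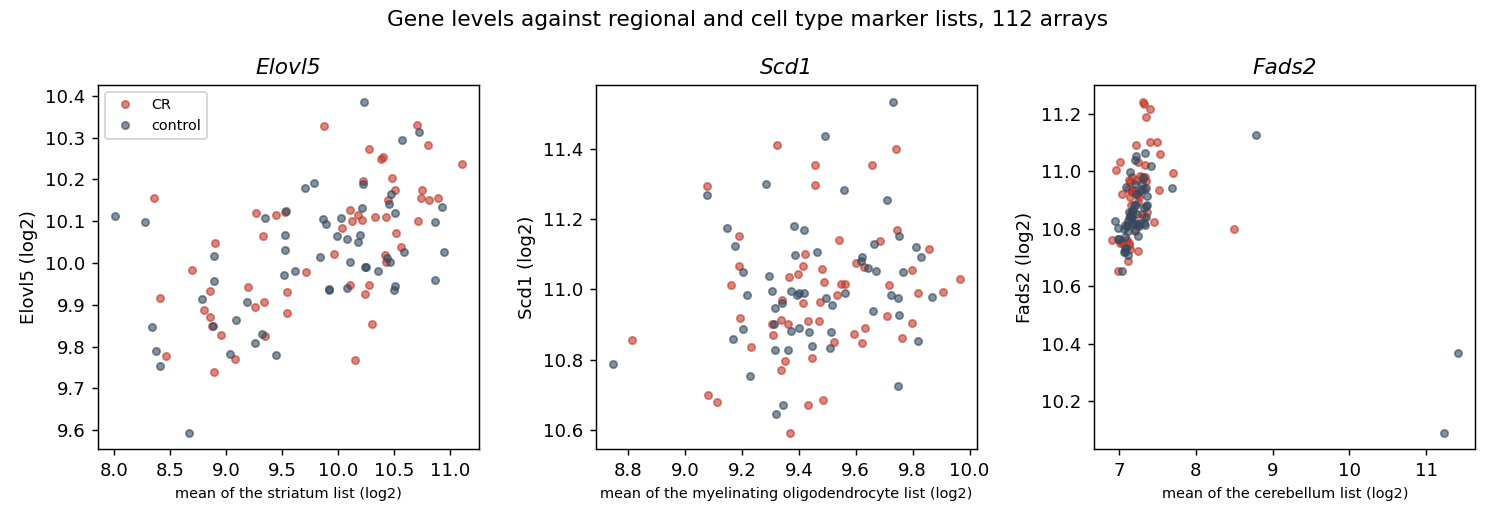
Log2 signal (y axes) of Elovl5, Scd1 and Fads2 on the 112 arrays against the mean log2 signal of the striatum, myelinating oligodendrocyte and cerebellum lists (x axes), with CR in red and control in dark blue. Elovl5 rises with striatal genes and Scd1 with myelin genes, and the 2 arrays above 11 on the cerebellum axis have the lowest Fads2.

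The rest of the pathway gave few calls, where 1.17% of all genes were called higher and 1.17% lower. Of 14 measured regulators, 0 were called in either direction by limma. Srebf1, the sterol-responsive factor that drives lipogenic genes, had 8.44 in CR mice and 8.49 in control mice (−0.047 ± 0.018, SE, n = 56 each, adjusted p = 0.179), and Mlycd, which degrades malonyl-CoA, had −0.058 ± 0.018 (adjusted p = 0.0589). Insig2, whose p was smaller than that of Srebf1, had 0.046 ± 0.015 (adjusted p = 0.0800, limma) and was higher in CR mice in 6 of 7 strains. Of the 14 regulators, 5 had a positive difference. None of the 16 other elongation and desaturation enzymes was called, and the nearest was Hsd17b12, the ketoacyl reductase of the elongation cycle (0.083 ± 0.025, adjusted p = 0.0525). Among the 11 genes that supply acetyl-CoA and NADPH, 1 was called higher: Acss1, the mitochondrial acetyl-CoA synthetase, at 8.84 in CR mice and 8.76 in control mice (0.082 ± 0.023, adjusted p = 0.0345). Idh1, another source of NADPH, had 0.093 ± 0.030 (adjusted p = 0.0729). Among the 11 genes of fatty acid activation and carriage, 2 were called lower: Slc27a1, a fatty acid transport protein, at 9.81 in CR mice and 9.88 in control mice (−0.063 ± 0.016, adjusted p = 0.0156, lower in 7 of 7 strains), and the acyl-CoA synthetase Acsbg1 at 9.91 in CR mice and 9.99 in control mice (−0.081 ± 0.023, adjusted p = 0.0359). Acsbg1 and Fabp7 (−0.18 ± 0.059, adjusted p = 0.0756) are known as astrocyte genes. Of the 10 astrocyte markers 3 had a positive difference, with a median of −0.020. Gja1, an astrocyte connexin, was the 1 marker called (0.096 ± 0.016, adjusted p = 9.74e-05), while Gfap had −0.084 (adjusted p = 0.224) and Fgfr3 −0.059 (0.105). Their part in the values of Acsbg1 and Fabp7 was not tested. Of the 6 measured genes of mitochondrial fatty acid synthesis and the 11 of glycerolipid assembly, 0 were called. The nearest in glycerolipid assembly were Agpat3 (−0.040 ± 0.012, adjusted p = 0.0653, limma) and Agpat2 (0.061 ± 0.021, adjusted p = 0.102). In mitochondrial fatty acid synthesis the nearest was Oxsm (0.052 ± 0.020, adjusted p = 0.178).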

How the data were processed

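Total RNA was extracted with Trizol from the cerebral cortex of 112 male mice, labelled as biotinylated cRNA and hybridised to Affymetrix Gene 1.0 ST arrays. The authors processed the arrays in Affymetrix Expression Console with gene-level RMA, and the deposited log2 signals of 35556 probe sets were used as they stand. The sources used here give neither program versions nor whether all arrays were normalized in 1 run. Medians per array lay between 7.14 and 7.26, no value was missing, no pair of arrays was identical, and no batch or scan date was known. The number of arrays limits the precision, since an array has no read depth.

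Of the probe sets, 21789 had a single gene symbol, 1621 several and 12146 none in the platform annotation. The probe set of highest mean was kept per gene, which left 19938 genes. Means of the 14 strain and diet groups were fitted with limma 3.58.1 in R 4.3.3 (98 residual and 4.62 prior degrees of freedom), and p-values were adjusted by Benjamini-Hochberg over all genes, with a call at 0.05. The CR effect across strains is the mean of 7 within-strain differences (CR minus control). Hybrid contrasts are the hybrid minus the mean of both parents. On simulated data for the CR effect across strains over 19938 genes, 55 of 100 changes of 0.1 and 94 of 100 changes of 0.2 log2 units were recovered, with 17 false calls. The simulated noise was independent between genes and each change was equal in all strains. Regional content shared by genes and outlying arrays were not simulated, so recovery on the real arrays may differ. Correlations used 100000 shuffles within groups (Python 3.11.15, numpy 2.4.6).

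The members and gene lists were chosen with earlier results of these data known. The text names all 10 members, and of each further pathway list the genes called and some of those with a small p. Marker lists covered oligodendrocytes, astrocytes, neurons, other cell types and neighbouring regions. Replicate numbers in the labels belong to different mice and were not used to pair them. Alternatives were other normalizations, filters, weights, covariates, left-out arrays and strains, a replicate block, and the methods' t-test and two-way model. The striatal covariate was added after the data were seen. Promoter letters are from RefSeq (GRCm38.p6). The smallest group has 8 mice.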

Additional observations from a re-analysis of the deposited data

Results flagged for a closer look

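Of 140 gene and group sets of 8 arrays, 16 held an array that stood far from the others of its group, where chance flags about 1 in 20 groups, or 7 here. No strain by diet difference was flagged.

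C57BL6/J control replicate 6 was low for Fasn (9.75), Acly (8.82), Fads1 (10.78) and Fads2 (10.09), and B6C3F1/J control replicate 8 was low for Fasn (9.82), Fads1 (10.96) and Fads2 (10.37). These are the 2 arrays with the highest cerebellar genes, and their array weights were 0.057 and 0.0722. DBA/2J control replicate 8, another array high in cerebellar genes, was high for Fads2 (11.12). Whether the cerebellar signal accounts for these levels was not tested.

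Balbc/J control replicate 1 was low for Elovl6 (9.95) and Me1 (8.92). Other low arrays were 129S1/SvImJ CR replicate 5 for Acly (8.83), C57BL6/J CR replicate 1 for Elovl5 (9.93), C3H/HeJ control replicate 2 for Me1 (9.03) and CBA/J CR replicate 7 for Me1 (8.80). High arrays were B6C3F1/J CR replicate 3 for Elovl5 (10.16) and CBA/J CR replicate 1 for Fads1 (11.44).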

How the results depend on the processing

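The count of genes called for CR across strains, 0 as reported, was 1 after a second quantile normalization, robust moderation with trend, the plain two-way model or the myelin covariate (Fads2 in each), and 1 with the spread of relative log expression or the cerebellar list as covariate, without C57BL6/J control replicate 6, without B6C3F1/J control replicate 8 or without both (Elovl6 in each). It was 2 among genes above the median gene, without all 4 arrays high in cerebellar genes, without Balbc/J or with the striatal covariate, which was chosen after seeing the data (Elovl6 and Fads2 in each), and 3 with array weights (Scd2 too, adjusted p = 0.0446). Calls over all genes also rose in several of these settings, from 467 to 875 without all 4 arrays and 870 without both. They were 704 with the cerebellar covariate and 1193 with array weights, and fell to 306 without Balbc/J. Over 22 alternatives the adjusted p of Fads2 ran from 0.0156 to 0.185 and that of Elovl6 from 0.0155 to 0.382, and their differences stayed positive. The replicate block gave 1 call across strains (Elovl6, adjusted p = 0.0204). Same-numbered CR and control mice of a strain had r of −0.481 to 0.373 over deviations from group means, with a mean of 0.0938. The mean for other numbers, −0.0127, is nearly fixed by that value, because such deviations sum to 0 within a group. By strain, the mean r of same-numbered mice was negative in Balbc/J (−0.0656) and positive in every other strain (0.0843 to 0.164). Of 56 CR mice, 14 correlated best with the control mouse of their own number, where 7 would by chance. This is a hint from the data that the numbers are not arbitrary, but not every pair had a positive r and the labels name different mice, so the block was kept as an alternative. Under the block Fasn also passed among CR mice (adjusted p = 0.0375), and it moved no other count of called members.

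Fads1 passed among control mice in 12 of 21 alternatives and Fasn among CR mice in 11 of 14. Acaca passed among control mice after the second quantile normalization (adjusted p = 0.00984, limma). The hybrid count among control mice was 2 instead of 4 after the second quantile normalization. Differences near zero turned sign. Fasn had −0.0034 with array weights, −0.0059 with relative log expression, −0.0036 with the cerebellar covariate, −0.0016 without C57BL6/J, −6.46e-06 without B6C3F1/J, −0.0078 and −0.010 without both or all 4 cerebellar arrays, and between −0.00035 and 0.00067 without either 1 of the first 2. For the same settings Acly had −0.0068, −0.011, −0.0064, −0.0031, −0.0012, −0.0083 and −0.0098, and also −0.0063 without C57BL6/J control replicate 6, −0.0058 with the striatal covariate, −0.0026 without 129S1/SvImJ and −0.0048 without C3H/HeJ. Fads1 had −0.0017 with relative log expression and −0.00062 without both arrays (up to 0.0082 without 1 of them), and Acaca 0.011 with its other probe set. Within strains, Fads2 in CBA/J had −0.00019 with median centring, −0.0015 with weights and −0.028 with relative log expression. Scd2 in B6C3F1/J had 0.0020 after quantile normalization, 0.0094 with weights, 0.0038 with the cerebellar covariate and between −0.0019 and 0.0016 with 1 array left out. Elovl6 in Balbc/J had 0.0069 with the striatal covariate, and Me1 in CR hybrids −0.013 with median centring. The causes were not tested. Over all genes, calls for CR across strains ran from 175 (without CBA/J) to 1193 (array weights) around 467, and calls within strains from 17 to 585 around 38. Array number limits what can be called within a strain, where 8 mice faced 8.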
